A study of Arabidopsis thaliana with 12 samples.

Results

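The E1 component of the 2-oxoglutarate dehydrogenase complex (2-OGDH) was followed on 1 of the 3439 rows of an Arabidopsis thaliana expression array table. The platform annotation gives this row to AT5G65750 and AT3G55410 together, the 2 genes described here, and no other row lists either of them. The row therefore gives 1 joint intensity, and the share of each gene in it cannot be told apart. It was picked from the measured values, by comparing treated and water arrays, so its own levels, pair differences and ranks are a description and carry no test.

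The arrays held total RNA of wild-type plants of the Columbia 0 ecotype. In 6 samples, called treated here, plants had received 2 µM staurosporine for 4 h and after that 25 mM ascorbate at pH 5.5 for 4 h. In the other 6 samples plants had been in water for 8 h. Staurosporine blocks the activity of many protein kinases, and ascorbate (vitamin C) is an abundant reductant in plant tissues. Because the 2 compounds, their order and the pH were given together, their parts cannot be told apart. The labels name no tissue or separate cultures behind the replicate numbers 1 to 6, so the p-values reflect only how far these samples spread, and that spread may be technical.

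The 2-OGDH complex sits in the mitochondrial matrix and catalyses an oxidative step of the tricarboxylic acid (TCA) cycle, in which 2-oxoglutarate, coenzyme A and NAD+ give succinyl-CoA, carbon dioxide and NADH. E1 binds thiamine diphosphate and decarboxylates 2-oxoglutarate, E2 carries the succinyl group on lipoic acid and hands it to coenzyme A, and E3 reoxidises the lipoic acid and is shared with other complexes. In plants 2-oxoglutarate is also the carbon skeleton that takes up ammonium through glutamate, so this step lies where respiration and nitrogen assimilation meet.

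Transcripts measured by the E1 row were brighter on every treated array than on any water array. The 6 treated arrays had deposited intensities of 1.11, 1.33, 1.01, 1.07, 0.766 and 0.771 in the order of their replicate numbers. The 6 water arrays had 0.439, 0.436, 0.303, 0.281, 0.335 and 0.318. Treated replicates 5 and 6 were the dimmest of their group, water replicates 1 and 2 the brightest of theirs, and the groups did not overlap. The lowest treated intensity was 1.74 times the highest water intensity. Groups that did not overlap and were higher in treated plants, by a gap of any size, were present in 7.04% of all 3439 rows and in 6.78% of the 870 rows annotated to several genes. On the normalized log2 scale the gap of the E1 row was 0.91, and 49 rows had a larger upward gap.

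The group means of the E1 row were 1.01 ± 0.217 in treated plants and 0.352 ± 0.0686 in water (SD, n = 6 each), a ratio of 2.87. The spread relative to the mean was of similar size in both groups, with a coefficient of variation of 21.5% in treated plants and 19.5% in water. After values of 0 were raised to a floor and the arrays were quantile-normalized on the log2 scale, the row stood at 0.02 ± 0.32 in treated plants and -1.59 ± 0.23 in water. The difference, treated minus water, was 1.61 ± 0.158 (SE from the limma fit), or 3.04-fold. In bulk RNA, more cells of a type and more RNA per cell cannot be told apart.

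**Figure D1:**
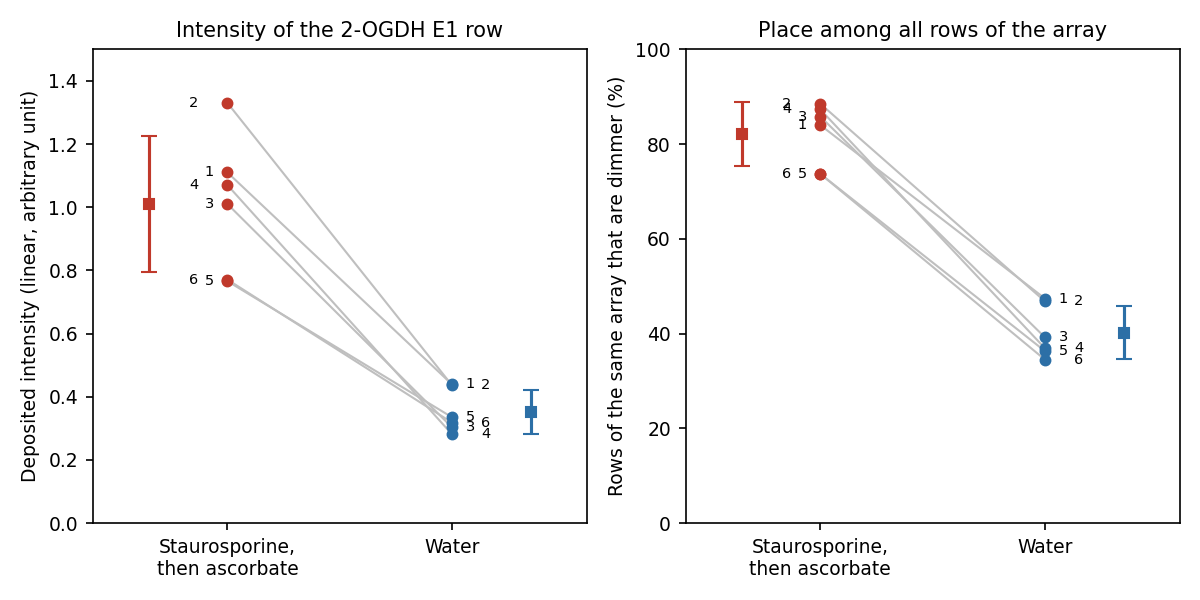
Left, deposited intensity of the 2-OGDH E1 row on each array (linear axis from 0). Right, the percentage of rows of the same array that were dimmer than it. Points are arrays with their replicate numbers, grey lines join arrays of the same number, and squares with bars are the mean and SD of 6 arrays. Treated arrays sit between 0.766 and 1.33, above water arrays between 0.281 and 0.439, and all 6 lines run the same way.

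Same-numbered arrays gave the same direction. The ratio of the treated to the water intensity of the E1 row was 2.54, 3.06, 3.34, 3.81, 2.29 and 2.43 for replicate numbers 1 to 6, with a mean of 2.91 ± 0.595 (SD over 6 pairs). All 6 pairs had to be higher in treated plants, since every treated array was above every water array. Over the table, all 6 pairs were higher in 14.9% of rows, among them rows whose groups overlapped. On the normalized log2 scale the pair differences lay between 1.37 and 1.98. Pairs 3 and 4 had the widest differences. As deposited, their water arrays were the 2 dimmest and their treated arrays lay in the middle of the treated group. After normalization, water replicates 3 and 4 stood at -1.61 and -1.72, above 5 and 6 at -1.75 and -1.84. Treated replicates 3 and 4 stood there at 0.18 and 0.27, with only replicate 2 higher, at 0.35.

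Arrays with adjacent numbers (1 and 2, 3 and 4, 5 and 6) lay close together for the E1 row. The brighter of such a pair exceeded the dimmer by a factor of 1.2, 1.06 and 1.01 in treated plants, and of 1.01, 1.08 and 1.05 in water. The ratio of the pair means, treated over water, was 2.8 for replicates 1 and 2, 3.56 for replicates 3 and 4 and 2.36 for replicates 5 and 6. Each of these 3 pairs gave a higher treated mean, as groups that do not overlap must, and replicates 5 and 6 gave the smallest ratio. The labels do not say whether adjacent numbers share an RNA sample, a plant or a day.

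The place of the E1 row among all rows of an array does not depend on how that array was scaled. With 1 as the brightest of the 3439 rows, it ranked 551, 396, 488, 438, 906 and 904 on treated arrays 1 to 6. On water arrays 1 to 6 it ranked 1810, 1829, 2091, 2169, 2191 and 2252. The row thus lay in the upper part of every treated array and near or below the middle of every water array. Of all rows, 82.2% ± 6.73 were dimmer than it in treated plants, against 40.2% ± 5.56 in water (SD, n = 6 each). Relative to the median row of the array, it reached 2.45 ± 0.699 times that level in treated plants and 0.774 ± 0.121 times in water. Array medians themselves ranged from 0.351 to 0.486 in treated plants and from 0.405 to 0.485 in water, a narrower range than the ratio of 2.87 for the row. A rank is read here only within this row, since rows also differ in how strongly their probes bind.

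Over the whole table, 16.7% of the 3439 rows rose and 16.2% fell at an adjusted p under 0.05 in limma, and the median difference of all rows was 0 on the log2 scale. A total of 90 rows (2.62%) had a larger rise than the E1 row, of which 12 were annotated to 1 gene and 25 to several. The replicates of the E1 row spread about as much as those of rows of like brightness. Its SD within groups was 0.281 on the normalized log2 scale, against a median of 0.298 for the 200 rows closest to it in mean brightness and 0.361 for all rows.

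**Figure D2:**
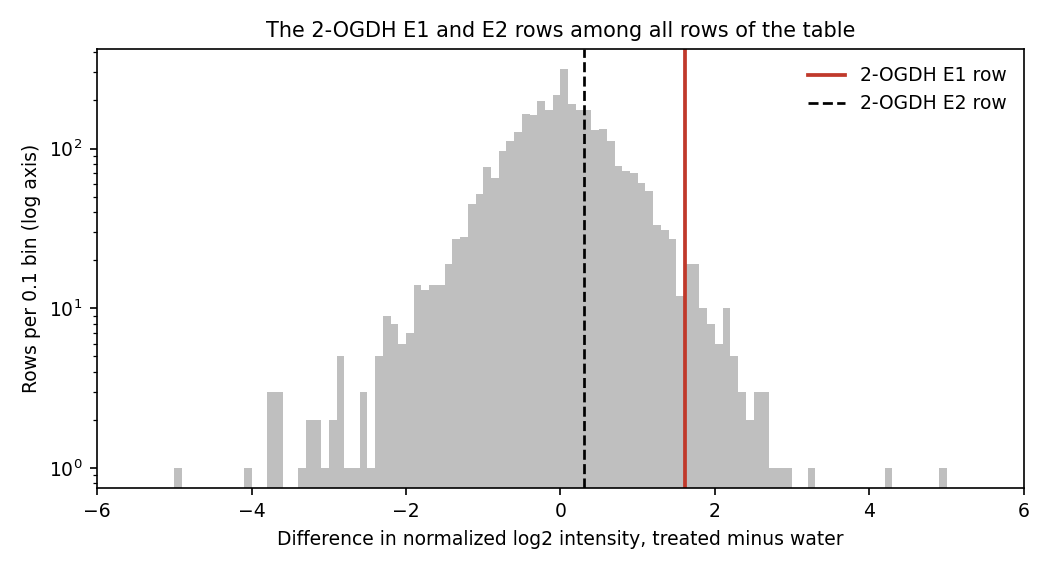
Histogram of the difference in normalized log2 intensity, treated minus water, over the 3439 rows (bins of 0.1, log count axis). The solid line marks the 2-OGDH E1 row at 1.61 and the dashed line the E2 row at 0.30. Only 90 rows lie to the right of the E1 row.

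The next component of the complex was also on the array. The row annotated to AT5G55070 and AT4G26910 together, which encode the dihydrolipoyl succinyltransferase E2, was dim and variable. Its treated arrays had intensities with a lowest value of 0.139, a median of 0.168 and a highest of 0.471, and its water arrays a lowest of 0.0997, a median of 0.211 and a highest of 0.287. The groups overlapped, and 4 of 6 same-numbered pairs were higher in treated plants. The E2 row averaged 0.231 ± 0.129 in treated plants and 0.205 ± 0.0746 in water (SD, n = 6 each). Its difference was 0.30 ± 0.277 (SE) on the normalized log2 scale, with a 95% interval from -0.31 to 0.91 and an adjusted p of 0.46 in limma. Single arrays moved this difference, which was 0.13 without treated replicate 5 and 0.18 without water replicate 4, and it was 0.01 with replicates 1 to 3 alone, 0.55 with replicates 4 to 6 alone and 0.12 in the intensities as deposited. The pair differences of the E2 row ran from -0.35 to 1.01, and those of the E1 row from 1.37 to 1.98. Whether E1 and E2 differed from each other was not tested, because the E1 row had been chosen on this contrast. Among the annotated rows, 0 listed genes of the E3 component alone.

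Neighbouring enzymes of the TCA cycle were represented by few rows. Besides the E1 genes, 13 lists held 138 genes of the TCA cycle, 2-oxo acid dehydrogenases, malate and glutamate metabolism, organic acid carriers and respiration. A further 7 rows had genes that all belonged to one list. Of these, 4 rows had 1 gene and 3 had several. The row of AT5G47030, a subunit of mitochondrial ATP synthase, was listed at 0 on all 12 arrays, so no level is stated for it. Of the 6 measured rows, 1 rose, 0 fell and 5 did not pass in limma, beside 16.7% higher and 16.2% lower over all rows. Their median difference was 0.25 on the log2 scale, against 0 for all rows tested.

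The row that rose was AT5G58330, the chloroplast NADP-dependent malate dehydrogenase that lets plastids export reducing power as malate. Its intensities in treated plants had a lowest value of 0.517, a median of 0.589 and a highest of 0.765, against a lowest of 0.269, a median of 0.326 and a highest of 0.457 in water. The groups did not overlap, so that 6 of 6 pairs were higher in treated plants. The means were 0.621 ± 0.113 in treated plants and 0.342 ± 0.0767 in water (SD, n = 6 each). The difference of 0.98 ± 0.212 (SE) on the log2 scale, or 1.97-fold, had an adjusted p of 0.00472 in limma. The call ended when adjacent replicates were averaged (adjusted p 0.103 in limma) and with replicates 4 to 6 alone (0.103), although the difference stayed at 0.98 and 1.03.

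For the steps on either side of 2-OGDH, the rows measured did not pass the threshold with all arrays. Among the 14 genes listed for citrate synthase, aconitase and isocitrate dehydrogenase, only AT5G14590 had a row. No other isocitrate dehydrogenase of that list was measured. AT5G14590, an NADP-dependent isocitrate dehydrogenase, which makes 2-oxoglutarate, averaged 0.797 ± 0.214 in treated plants and 0.734 ± 0.0621 in water (difference 0.19 ± 0.122 SE on the log2 scale, limma adjusted p 0.27). Treated replicates 3 and 4 were its 2 lowest values of all, at 0.588 and 0.489, while replicate 1 was the highest at 1.05. Without treated replicate 4 the difference of AT5G14590 was 0.29 and passed (limma adjusted p 0.0323).

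The row annotated to AT5G23250 and AT5G08300, the alpha subunits of succinyl-CoA ligase, which uses the product of 2-OGDH, had the smallest SD within groups of the measured list rows (0.106 on the log2 scale). It averaged 0.476 ± 0.072 in treated plants and 0.505 ± 0.0227 in water (SD, n = 6 each). Its log2 difference of 0.0095 ± 0.0645 (SE) had a 95% interval from -0.13 to 0.15 and a limma adjusted p of 0.957. The sign of so small a value changed with the scaling, to -0.10 in the intensities as deposited.

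Of the respiratory chain, the row of AT1G80230 and AT3G15640, subunit 5b of cytochrome c oxidase, averaged 0.494 ± 0.106 in treated plants and 0.526 ± 0.0646 in water (SD, n = 6 each; limma adjusted p 1). Its log2 difference of 0.0019 had a 95% interval from -0.31 to 0.31. AT4G02580, a subunit of the NADH-oxidising module of complex I, was near the bottom of the range. It was listed at 0 on 2 treated arrays and 1 water array, with highest values of 0.231 in treated plants and 0.114 in water, so that its 95% interval ran from -1.21 to 2.04 on the log2 scale (limma adjusted p 0.719).

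**Figure D3:**
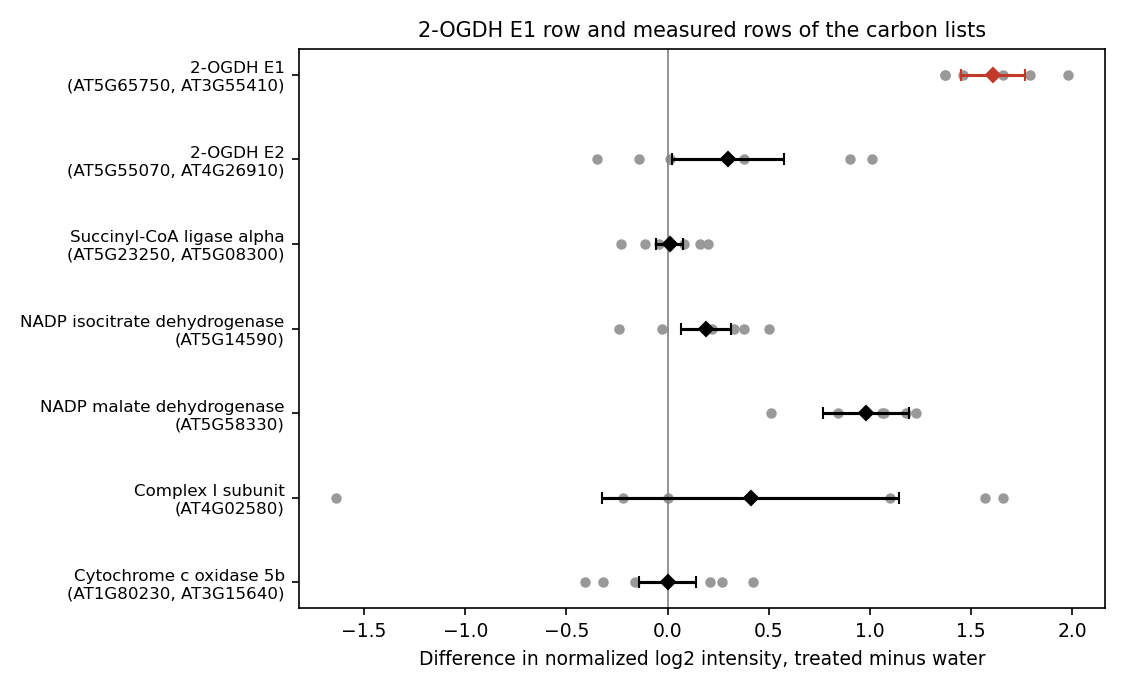
Difference in normalized log2 intensity, treated minus water, for the 2-OGDH E1 row (red) and the 6 measured rows of the carbon lists. Diamonds with bars are the estimate and SE of the limma fit, and grey points are the 6 same-numbered pairs. The points of the E1 row and of AT5G58330 all lie to the right of 0, while those of the other 5 rows fall on both sides of it.

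The genes with the most similar profile were sought among 499 rows with 1 gene that were above 0 on all 12 arrays and not among the dimmest 25%. Likeness was the root mean square difference of the normalized log2 values, each row taken around its own mean, so that 0 would be an identical course. AT1G67820, which encodes a type 2C protein phosphatase, was nearest at 0.144, and no row of any annotation was nearer among the 2461 compared. It stood at 0.429 ± 0.0899 in treated plants and 0.155 ± 0.0257 in water (SD, n = 6 each), a log2 difference of 1.61 ± 0.185 (SE). Its treated replicates 1 to 6 had deposited intensities of 0.55, 0.536, 0.368, 0.387, 0.345 and 0.386. Replicates 3 and 4 were level with 5 and 6 on this row, whereas they lay above them on the E1 row, before normalization between arrays. On the normalized scale used for likeness, they lay above them on both rows. Around its mean, AT1G67820 stood there at 0.88 and 0.97 on treated replicates 3 and 4, against 0.21 and 0.44 on 5 and 6.

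AT4G15840 followed at 0.299, AT5G05400, an immune receptor of the NLR type, at 0.307, AT2G15440 at 0.307 and AT1G72020 at 0.309. Their log2 differences were 1.53, 1.85, 1.18 and 1.15 in that order. On each of these rows the 6 treated arrays were above all water arrays in deposited intensity, which choosing rows by likeness to the E1 row favours. The median over all 499 rows was 0.95, and the E2 row of the same complex stood at 0.913. A row with no variation at all would stand at 0.843, so the E2 row was farther from the E1 row than a flat one. The E2 row was among the dimmest 25% of rows and so was not one of those compared. Spread within groups also enters this measure, with an SD of 0.497 on the E2 row and 0.281 on the E1 row. Of rows with several genes, the one annotated to AKINBETA1 and AT4G16360, beta subunits of the kinase SnRK1, was the nearest, at 0.174 and a log2 difference of 1.76; it was named after its values had been seen.

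**Figure D4:**
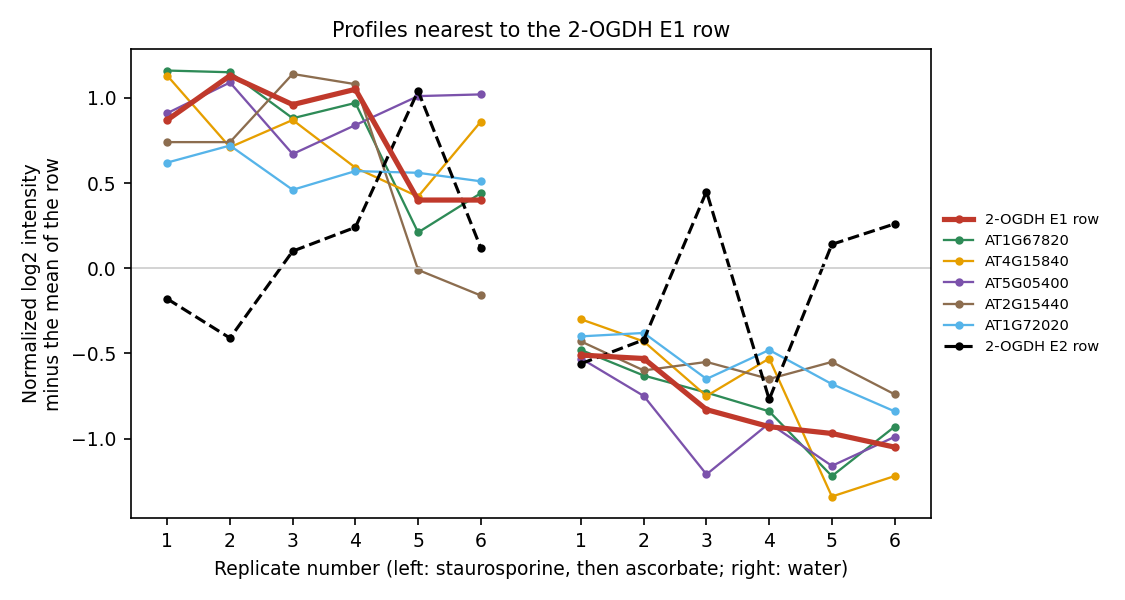
Normalized log2 intensity around the mean of each row, on treated arrays 1 to 6 (left) and water arrays 1 to 6 (right), for the 2-OGDH E1 row, the 5 nearest rows with 1 gene and the 2-OGDH E2 row. Lines only help to follow a row, as replicates have no order. The E1 row lies between 0.40 and 1.13 on treated arrays and between -1.05 and -0.51 on water arrays, whereas the E2 row spans -0.41 to 1.04 on treated arrays and -0.77 to 0.45 on water arrays.

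Tissue markers could barely be read. Of 10 leaf marker genes, 1 had a row of its own, LHB1B2, a light-harvesting antenna gene of photosystem II, and of 6 root marker genes 0 had one. LHB1B2 fell, with 1.29 ± 0.0867 in treated plants and 2.18 ± 0.619 in water (SD, n = 6 each), a log2 difference of -0.65 ± 0.143 (SE; limma adjusted p 0.00512). That call ended with median centring (-0.61, limma adjusted p 0.0508) and on means of adjacent replicates (-0.65, 0.109), with a difference of about the same size, and with replicates 4 to 6 alone (-0.39, 0.236). A brighter row annotated to RCA, the leaf marker Rubisco activase, together with AT1G73110 averaged 1.45 ± 0.143 in treated plants and 1.37 ± 0.111 in water, with a log2 difference of 0.13 ± 0.0769 (SE; limma adjusted p 0.219). A second row with that annotation was listed at 0 on 5 treated arrays and on 6 water arrays. The part of these leaf markers in the difference of the E1 row was not tested. As general facts of the arrays, between 10.3% and 15.2% of the rows of an array were listed at 0, the E1 row on none, and array means ranged from 0.857 to 1.04. Precision is limited by having 6 arrays a group.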

How the data were processed

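Each array has 1 linear intensity a row in the deposited table. The authors' scanning, background correction and scaling are not given in the sources used here. The deposited intensities are never negative and reach at most 100, as the values show. Groups and replicate numbers come from the sample titles. Values of 0 were set to a floor at the 1st percentile of positive intensities (0.0157). Array medians on the log2 scale differed by 0.47, over the limit of 0.1, so the log2 values were quantile-normalized, a step that would conceal a shift shared by most RNAs. The comparison used limma 3.58.1 in R 4.3.3 over all 3439 rows, with group as the only term, Benjamini-Hochberg adjustment and a threshold of 0.05. The fit was tested on simulated data with independent arrays and with fewer changed rows than were called in these data. That test therefore did not cover correlation between arrays or so large a share of changed rows. Figures used matplotlib 3.10.9 in Python 3.11.15.

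Gene names come from the platform annotation, which can be old, and from TAIR10.1. The annotation gives 1 gene to 692 rows (690 matched a locus), several to 870 and none to 1877. A row with several genes is given by all of them, and coordinates are not printed because no build is named. The 2-OGDH E1 row, the lists and the tests were chosen with earlier results of these data known. The rule for named genes took the E1 row, at most 4 rows a list in order of p, and the 5 rows with 1 gene nearest in profile.

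Same-numbered arrays of the 2 groups correlated between 0.302 and 0.425 in their deviations from the group means. Each was over 0.1, so same-numbered arrays were compared as pairs. The main fit, which gave the SEs, intervals and p-values of the Results, did not use the pairing. With the replicate block the SE of the E1 row was 0.0992 in place of 0.158. For the row of AT5G23250 and AT5G08300 it was 0.0703 in place of 0.0645. The pairing comes from this check alone, and other numbers reached 0.336. Adjacent numbers within a group correlated between -0.0876 and 0.642, against -0.404 to -0.197 for other numbers. The alternatives were other scalings, floors, filters and variance models, the replicate block, means of adjacent replicates, and fewer arrays.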

Additional observations from a re-analysis of the deposited data

Results flagged for a closer look

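The values were searched in 24 sets of 6, both groups of the E1 row, the 6 measured list rows and the 5 nearest rows with 1 gene. In 1 set a value was well separated from the remaining 5, where about 5% of sets would by chance. The leaf marker rows and the rows pairing a list gene with an outside gene were not searched. Of these, the row of MDH and AT3G53910 had 0.0109 on water replicate 4 and 0.153 to 0.309 on the other water arrays. For AT4G02580, the complex I subunit, water replicate 4 was listed at 0 and stood at -5.99 on the normalized log2 scale, set by the floor, with the other water arrays between -4.35 and -3.80. No array of the 2-OGDH E1 row stood apart in this way.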

How the results depend on the processing

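The log2 difference of the 2-OGDH E1 row kept its direction under all 23 alternatives run. Choosing the row on these same arrays for this contrast favoured that, so it carries no test. The difference moved by less than the SD of the row within groups. The alternatives put the difference between 1.39 (a pseudocount in place of the floor) and 1.71. It was 1.53 to 1.71 when 1 array was left out, 1.69 with replicates 1 to 3 alone, 1.52 with replicates 4 to 6 alone and 1.61 with the replicate block. The scaling of each array to one mean was chosen after seeing the data and gave 1.55. The rows changed over the table numbered 1131, or 1252 with the replicate block, 418 on means of adjacent replicates, 699 with replicates 1 to 3, 621 with replicates 4 to 6, and 1010 to 1158 without 1 array. Of the changed rows, 50.7% were higher in treated plants, but 39.2% in the intensities as deposited. Of the 6 list rows, 1 changed, with 0 on means of adjacent replicates, 0 with replicates 4 to 6, 2 without treated replicate 4 and 1 to 2 over the single arrays left out. The replicate block ended or added no call among the list rows. The sign turned for 2 rows with differences near 0. The row of AT1G80230 and AT3G15640 gave -0.11 as deposited, -0.0015 with median centring, -0.19 with replicates 1 to 3, -0.07 with arrays scaled to one mean, and -0.10 to 0.07 without 1 array. The row of AT5G23250 and AT5G08300 gave -0.10 as deposited, -0.06 with arrays scaled to one mean and -0.02 to 0.04 without 1 array. The cause of these moves was not tested, apart from the smaller number of arrays or means in some. Signal over background is unknown, and the E2 row and AT4G02580 fall out when the dimmest 25% of rows are removed.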

Other observations

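A pair of rows listed a gene of the TCA cycle lists together with a gene outside them and entered no count; they are named here after their values were seen. The row annotated to SDH2-1, an iron-sulfur subunit of succinate dehydrogenase, and to AT3G27360 averaged 0.667 ± 0.145 in treated plants and 0.891 ± 0.0729 in water (SD, n = 6 each), with a log2 difference of -0.32 ± 0.104 (SE; limma adjusted p 0.0342). This call was lost under 13 of the alternatives run, among them median centring (limma adjusted p 0.0942), means of adjacent replicates (0.0865) and 9 of the 12 fits without 1 array (0.0505 to 0.0702). The log2 difference in these fits stayed near that with all arrays, at -0.34 with median centring, -0.32 on means of adjacent replicates and -0.27 to -0.33 in those 9 fits. The row annotated to MDH, a plastid NAD-dependent malate dehydrogenase, and to AT3G53910 averaged 0.389 ± 0.129 in treated plants and 0.176 ± 0.0995 in water. It did not pass with all arrays (limma adjusted p 0.0978) or under 20 of the 23 alternatives. It passed in limma with the floor at the 10th percentile (0.019), with a pseudocount (0.0299) and with replicates 1 to 3 alone (0.00426). Its lowest intensity was 0.0109, on water replicate 4. The log2 difference was 0.96 without that array, and 1.49 to 1.90 without any other single array. Its pair differences ran from -0.55 to 4.69.

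Rows with the same annotation did not always move by the same amount. Among 44 pairs of rows that share their full set of genes, were above 0 on all arrays and were not among the dimmest 25%, the median gap between the log2 differences was 0.35, and in 19 of the 44 pairs the differences had opposite signs. In 4 of these pairs a row moved by at least 1 on the log2 scale; the other row had the same sign in 4 of 4 pairs and itself moved by at least 1 in 0 of them. The 2-OGDH E1 row has no such partner, so its value rests on 1 row of the table.

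Among the 10 rows of any annotation nearest in profile to the E1 row, 7 were not listed in the annotation, 2 carried several genes and 1, AT1G67820, carried 1 gene.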
